A study of Saccharomyces cerevisiae with 58 samples.

Results

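Wild type yeast was followed in 2 stresses, hydrogen peroxide (H2O2) and methyl methanesulfonate (MMS), and the mRNA changes of the H2O2 course were set against those of the MMS course. The members are 8 of the 58 arrays of the series: the H2O2 arrays of 10, 15 and 25 min with their own 0 min array, and the MMS arrays of 20, 40 and 80 min with their own 0 min array. A change is the mean of the 3 stressed arrays minus the 0 min array of the same course, in log2, and a difference is the H2O2 change minus the MMS change. All cells were a haploid MATalpha strain with the markers ura3-52, his3delta200, lys2delta201 and ade2, grown in YPD to mid log phase, and received 0.3 mM H2O2 or 0.1% MMS at 0 min. The other strain of the series is isogenic but for the rpb6 Q100R mutant, whose RPB6 locus is disrupted with HIS3 and which carries its RPB6 allele on a plasmid. Each course was 1 culture with 1 array per time. The 2 courses were normalized apart, so levels cannot be compared between them, and stress, culture, array set and sampling time cannot be told apart.

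H2O2 oxidizes proteins, lipids and DNA. In budding yeast the transcription factor Yap1, often together with Skn7, turns on peroxidases, thioredoxins and glutathione enzymes, while Msn2 and Msn4 turn on a general stress program that many stresses share. MMS is a methylating agent that damages DNA bases and also reacts with other cell components. Its DNA lesions are handled by base excision repair and engage the Mec1, Rad53 and Dun1 checkpoint kinases, which raise the supply of deoxynucleotides.

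RNA was read on Affymetrix Yeast 2.0 arrays, and 5498 probe sets with exactly 1 S. cerevisiae gene, covering 5449 genes, were tested. Of these, 128 are of the kind that can also read similar transcripts, and a value of such a probe set is uncertain as to gene. On the 8 arrays the alpha-cell genes MF(ALPHA)1, MF(ALPHA)2, STE3 and SAG1 lay between 11.7 and 14.2 in log2 level, and the a-cell genes MFA1, MFA2, STE2, STE6 and BAR1 between 5.68 and 9.25. The labelled mating type and its markers therefore go together on every array, although STE6 and MFA2 rose in MMS from these low levels, by 1.45 and 1.06 (adjusted p = 0.029 and 0.031 by limma, Benjamini-Hochberg). The same arrays carry 1747 probe sets for the distant fission yeast S. pombe, and 0 of them changed by 1.75-fold in H2O2 and 1 in MMS.

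Both stresses moved many of the same genes the same way, and MMS moved more genes and moved them farther. Across the 5498 probe sets the 2 changes had a Pearson r of 0.717 and a Spearman rho of 0.697, given as a description because genes are not replicates and all changes of a course share its 0 min array. The SD of the changes over probe sets was 0.56 in H2O2 and 0.99 in MMS, around medians of -0.02 and 0.02. A change here is a change in the share of mRNA of a bulk culture, in which fewer cells with a transcript and less of it per cell cannot be told apart. At the 1.75-fold limit of the study (log2 0.81), 325 probe sets were up in H2O2 (5.91% of those tested) and 221 were down (4.02%), while 884 were up in MMS (16.1%) and 811 were down (14.8%). The 246 up in both made up 75.7% of those up in H2O2 and 27.8% of those up in MMS. The 200 down in both made up 90.5% of those down in H2O2 and 24.7% of those down in MMS. The windows differ in time, and the nearest single arrays gave other gaps. At 25 min of H2O2, 321 were up and 257 down, against 511 and 427 at 20 min of MMS. At 45 min of H2O2, 152 were up and 23 down, against 994 and 871 at 40 min of MMS.

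The test was limma with Benjamini-Hochberg adjustment, in which the scatter between the 3 times of a window stands in for replicate error. The median SD within a window was 0.09 in H2O2 and 0.27 in MMS, and this scatter includes the time course itself. The scatter of both windows was pooled for each probe set, so the p-values of either stress rest on the arrays of both. By this test together with the fold limit, 29 probe sets rose in H2O2 (0.527%) and 0 fell (0%), although 75 of those past the limit downward had an unadjusted p under 0.05. In MMS, 362 rose (6.58%) and 253 fell (4.6%). Of the 29 that rose in H2O2, 21 also rose in MMS. These counts depend on that pooling, and with each stress fitted alone H2O2 had the larger count. They also turn on single arrays. Without the MMS 20 min array there were 142 in H2O2, 2024 in MMS and 612 for the difference, without the H2O2 array of 10 or 15 min 0 in H2O2, and without any one of the other 5 arrays 91 to 704 in MMS.

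For the difference itself the adjusted p was under 0.05 for 0 probe sets (0%), with a smallest value of 0.19 and 566 at an unadjusted p under 0.05. The classes below therefore rest on the fold limit, and not on a test of the difference within the wild type. The word H2O2-sided is used for probe sets past the limit in H2O2 with an MMS change under 0.4, and MMS-sided for the converse. As a further test, chosen after the values were seen, the window changes of the 4 cultures of both strains were compared by limma, which gives each stress 2 cultures. It called 984 probe sets with a higher change in H2O2 (17.9%) and 1067 with a lower one (19.4%). It is called the test over cultures below. Its wild type values are those that formed the classes and ranked the genes, so it is not independent support for genes chosen by them. It takes the 2 strains as replicates of a stress, and with strain as a term it called 2937 probe sets. It still cannot separate stress from array set.

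**Figure D1:**
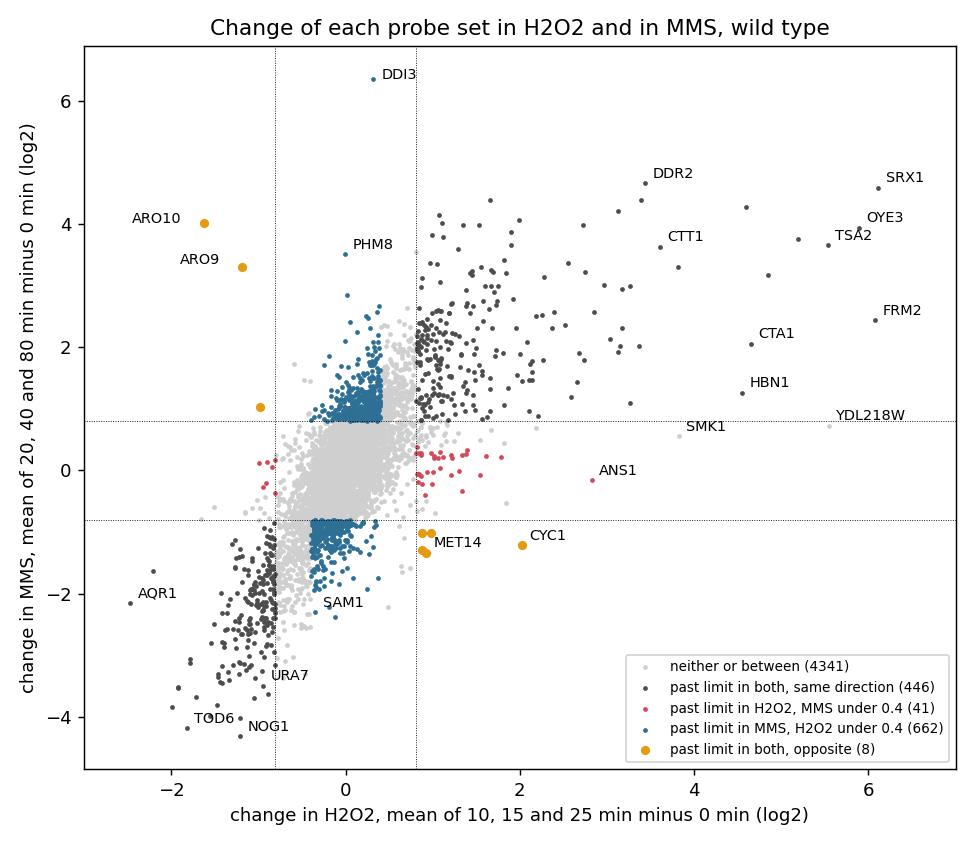
Each point is 1 probe set, with its mean log2 change in H2O2 on the horizontal axis and in MMS on the vertical axis, and dotted lines at the 1.75-fold limit. Of the coloured classes, 446 probe sets are past the limit in both stresses in the same direction, 41 are H2O2-sided, 662 are MMS-sided and 8 are opposite.

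The largest changes common to both stresses were those of antioxidant and detoxification genes. SRX1, the sulfiredoxin that repairs overoxidized peroxiredoxins, changed by 6.25, 6.30 and 5.80 at 10, 15 and 25 min of H2O2, against 4.74, 5.04 and 4.005 at 20, 40 and 80 min of MMS. All H2O2 arrays of SRX1 lay above all MMS arrays, and it rose in both stresses (adjusted p = 0.011 in H2O2 and 0.0088 in MMS). OYE3, an NADPH oxidoreductase of the old yellow enzyme family, changed by 5.85, 6.06 and 5.77 in H2O2, against 3.04, 4.35 and 4.44 in MMS. It too rose in both stresses (adjusted p = 0.014 and 0.013), and its H2O2 arrays lay above its MMS arrays. The difference was 1.52 ± 0.59 for SRX1 and 1.95 ± 0.76 for OYE3 (SE), and neither passed the limma test within the wild type (adjusted p = 0.47 for each), while over cultures the adjusted p was 0.021 and 0.018.

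Other genes of this kind had changes of a similar size. TSA2, an inducible peroxiredoxin, changed by 5.53 ± 0.19 in H2O2 and 3.66 ± 1.42 in MMS (SD, n = 3 arrays of 1 culture), short of the test in both (adjusted p = 0.11 and 0.054 by limma). GTT2, a glutathione S-transferase, rose by 5.20 ± 0.22 in H2O2 and 3.76 ± 0.76 in MMS. AAD4, a putative aryl-alcohol dehydrogenase, rose by 4.59 in H2O2 and 4.27 in MMS by 1 of its probe sets, and by 3.26 and 3.003 by the other. CTT1, the cytosolic catalase T, changed by 3.22, 3.98 and 3.64 in H2O2, against 3.09, 4.07 and 3.74 in MMS, and the values of the 2 stresses overlapped. Its difference was -0.02 ± 0.61 (SE), the closest match among these genes.

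FLR1, a plasma membrane multidrug transporter under Yap1, and DDR2, a general stress gene known for its response to DNA damage, had the higher value in MMS. FLR1 rose by 3.39 ± 0.41 in H2O2 and 4.40 ± 0.39 in MMS, with every H2O2 array below every MMS array. DDR2 changed by 3.44 ± 0.12 in H2O2 and rose by 4.66 ± 1.13 in MMS, where its lowest array, 3.36 at 20 min, lay among the H2O2 values. For neither did the adjusted p over cultures pass (0.20 for FLR1 and 0.17 for DDR2).

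**Figure D2:**
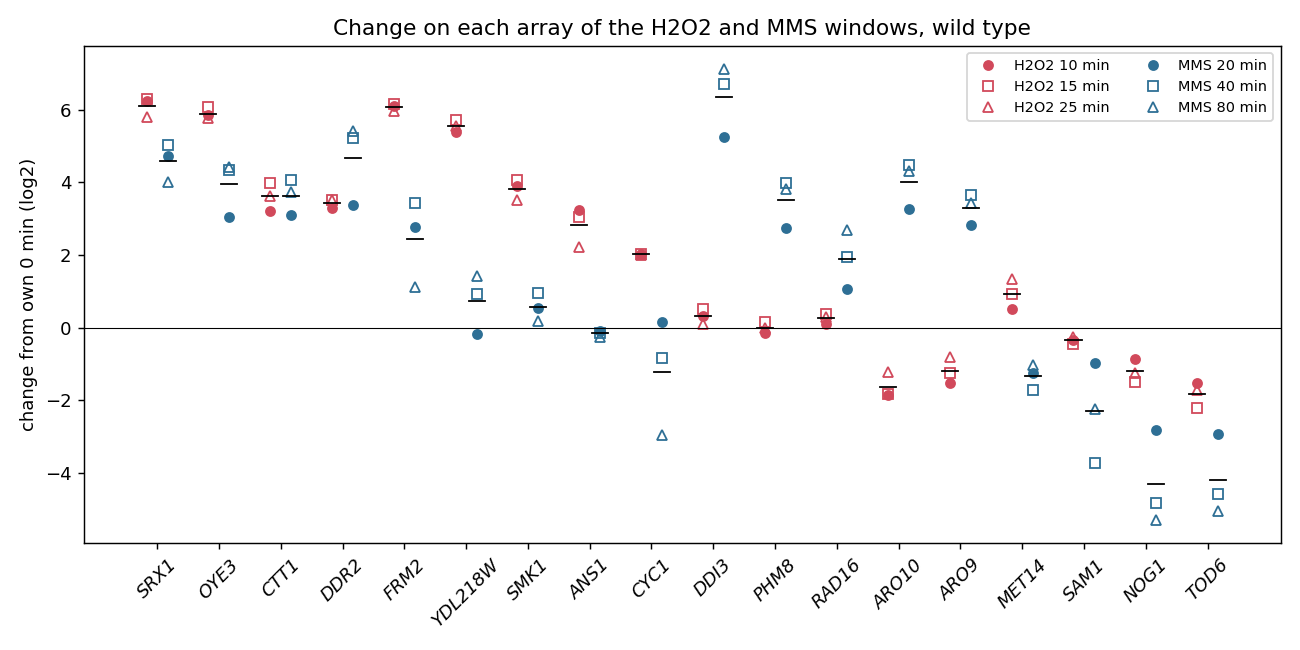
The log2 change from the own 0 min array is shown for 18 genes, with H2O2 arrays in red to the left of MMS arrays in blue, a symbol for each time and a bar at the mean of 3 arrays. SRX1 and OYE3 sit higher in H2O2, CTT1 overlaps, DDI3 and PHM8 are near 0 in H2O2 and high in MMS, and ARO9 and ARO10 lie on opposite sides of 0.

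Over the whole list of oxidative stress defence genes, 22 of 39 were past the limit upward in H2O2 (5.91% of all tested) and 19 in MMS (16.1%). Downward there were 0 in either stress. The median change was 1.13 in H2O2 and 0.80 in MMS (all tested, -0.02 and 0.02). By the limma test 11 of the 39 rose in H2O2 (0.527% of all tested) and 13 in MMS (6.58%). In 19 of the 39 every H2O2 array lay above every MMS array (24.4% of all tested) and in 0 below (27.3%). The test over cultures called a higher change in H2O2 for 11 (17.9% of all tested) and a lower one for 1 (19.4%). It rests in part on the same wild type arrays. The largest difference in the list was that of CTA1, the peroxisomal catalase A, which changed by 4.74, 5.14 and 4.08 in H2O2, against 1.80, 2.05 and 2.32 in MMS. CTA1 rose in both stresses (adjusted p = 0.013 and 0.032), and its difference was 2.60 ± 0.58 (SE, adjusted p = 0.31, adjusted p = 0.016 over cultures).

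Some enzymes of this list were under the limit in both stresses. The major peroxiredoxin gene TSA1 changed by 0.34 in both stresses, the cytosolic superoxide dismutase gene SOD1 by 0.43 in H2O2 and 0.39 in MMS, and AHP1, an alkyl hydroperoxide reductase, by 0.21 and 0.41. The mitochondrial enzymes had larger values in H2O2. CCP1, the cytochrome c peroxidase, rose by 2.11 in H2O2 and 0.96 in MMS, and SOD2, the mitochondrial superoxide dismutase, by 1.66 and 0.97. TRX2, the inducible thioredoxin, was below the limit in both, at 0.62 in H2O2 and 0.80 in MMS, and YAP1 itself lay at 1.21 and 1.16. These examples were chosen after their values were seen.

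Among drug and aldehyde detoxification genes 12 of 29 probe sets were past the limit upward in H2O2 (5.91% of all tested) and 16 in MMS (16.1% of all tested), and 1 was downward in MMS. The medians were 0.32 in H2O2 and 1.15 in MMS, and the difference was above 0 for 12 and below 0 for 17. FRM2 and HBN1, a pair of nitroreductase-like genes, showed the steepest contrast. FRM2 changed by 6.09, 6.16 and 5.97 in H2O2, against 2.78, 3.43 and 1.13 in MMS. HBN1 changed by 4.54, 4.60 and 4.51 in H2O2, against 0.77, 1.39 and 1.63 in MMS. Both rose in H2O2 (adjusted p = 0.045 and 0.011), fell short of the test in MMS (0.08 and 0.053), and had no overlap between the stresses. The differences were 3.63 ± 1.11 and 3.29 ± 0.46 (SE), with adjusted p = 0.016 over cultures for each. AAD10 went the other way, with a difference of -1.40.

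The second large group common to both stresses was the ribosome assembly machinery, which was down in both and farther down in MMS. Of 69 probe sets for the small subunit processome and 40S assembly, 43 were past the limit downward in H2O2 (4.02% of all tested) and 67 in MMS (14.8%). Their medians were -0.86 and -1.99. Of 73 for 60S assembly, 47 were past it in H2O2 and 71 in MMS, with medians of -0.89 and -2.19. In neither group was any past the limit upward. The limma test called 0 of these in H2O2, and in MMS 17 of the 40S and 14 of the 60S group (4.6% of all tested).

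The depth of this change varied over each course. The median of the 60S group was -0.59, -1.07 and -1.02 at 10, 15 and 25 min of H2O2, against -0.96, -2.39 and -3.06 at 20, 40 and 80 min of MMS. At the nearest times, 25 min of H2O2 and 20 min of MMS, the medians were thus -1.02 and -0.96, and the 40S group gave -0.95 and -0.93. Later the medians parted, with -0.75 and -0.40 for the 60S group at 35 and 45 min of H2O2, against -2.39 at 40 min of MMS, and with -0.68 and -0.34 for the 40S group, against -2.21.

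NOG1, a GTPase of 60S assembly, changed by -0.87, -1.49 and -1.26 in H2O2, against -2.83, -4.82 and -5.31 in MMS, with no overlap. It fell in MMS (adjusted p = 0.034), and its H2O2 change did not pass (0.71). NSR1, the yeast nucleolin, changed by -1.21 ± 0.37 in H2O2 and -4.03 ± 1.91 in MMS (SD, n = 3), and neither passed. TOD6, itself a repressor of ribosome biogenesis genes, was among the lowest of all, with changes of -1.53, -2.22 and -1.71 in H2O2, against -2.93, -4.59 and -5.05 in MMS (adjusted p = 0.50 in H2O2 and 0.028 in MMS). AQR1, a multidrug transporter, had the largest change in H2O2 among the genes down in both, at -3.25, -2.73 and -1.44, against -2.90, -2.46 and -1.07 in MMS, and on both courses the last window array was the nearest to 0.

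Most genes that feed ribosome production also had the lower change in MMS. Of 37 subunits and factors of RNA polymerases I and III, 5 were past the limit downward in H2O2 (4.02% of all tested) and 24 in MMS (14.8%). In MMS 1 was upward and rose by the test, and the medians were -0.50 in H2O2 and -1.27 in MMS. The difference was above 0 for 31 of the 37 and below 0 for 6. Over cultures it was called above 0 for 20 (17.9% of all tested) and below 0 for 3 (19.4%). RPA49, a subunit of RNA polymerase I, lay at -0.79 in H2O2 and -3.05 in MMS. Of 12 pyrimidine supply genes, 1 was past it downward in H2O2 and 7 in MMS, the difference was above 0 for 10 and below 0 for 2, and URA7, a CTP synthase, lay at -0.95 in H2O2 and -3.50 in MMS. Ribosomal protein genes moved little in H2O2. Their medians were -0.07 in H2O2 and -0.38 in MMS for 80 large subunit probe sets, of which 0 and 11 were past the limit. The 66 small subunit probe sets had medians of -0.07 and -0.39, with 0 and 12 past it. Over all tested, 14.8% were down in MMS, so these counts are near the background. The medians still moved down along the MMS course. At 20, 40 and 80 min they were -0.05, -0.33 and -0.77 for the large subunit and -0.05, -0.33 and -0.90 for the small. The difference was above 0 for 76 large subunit probe sets and below 0 for 4. For the small subunit these numbers were 61 and 5, and over all tested 2724 and 2774. At 0 min of H2O2 the log2 level was 13.8 for RPL13A and 14.6 for RPS8B.

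The mitochondrial ribosomal protein genes took opposite signs in the 2 stresses at small size. Their median was 0.23 in H2O2 and -0.31 in MMS over 65 genes, and in 53 of the 65 every H2O2 array lay above every MMS array (24.4% of all tested). No member was past the limit in H2O2 and 2 were downward in MMS (14.8% of all tested), and the limma test called 0 in either stress. MRPL44 had the largest difference, with 0.11, 0.25 and 0.43 in H2O2, against -0.69, -1.14 and -2.23 in MMS.

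**Figure D3:**
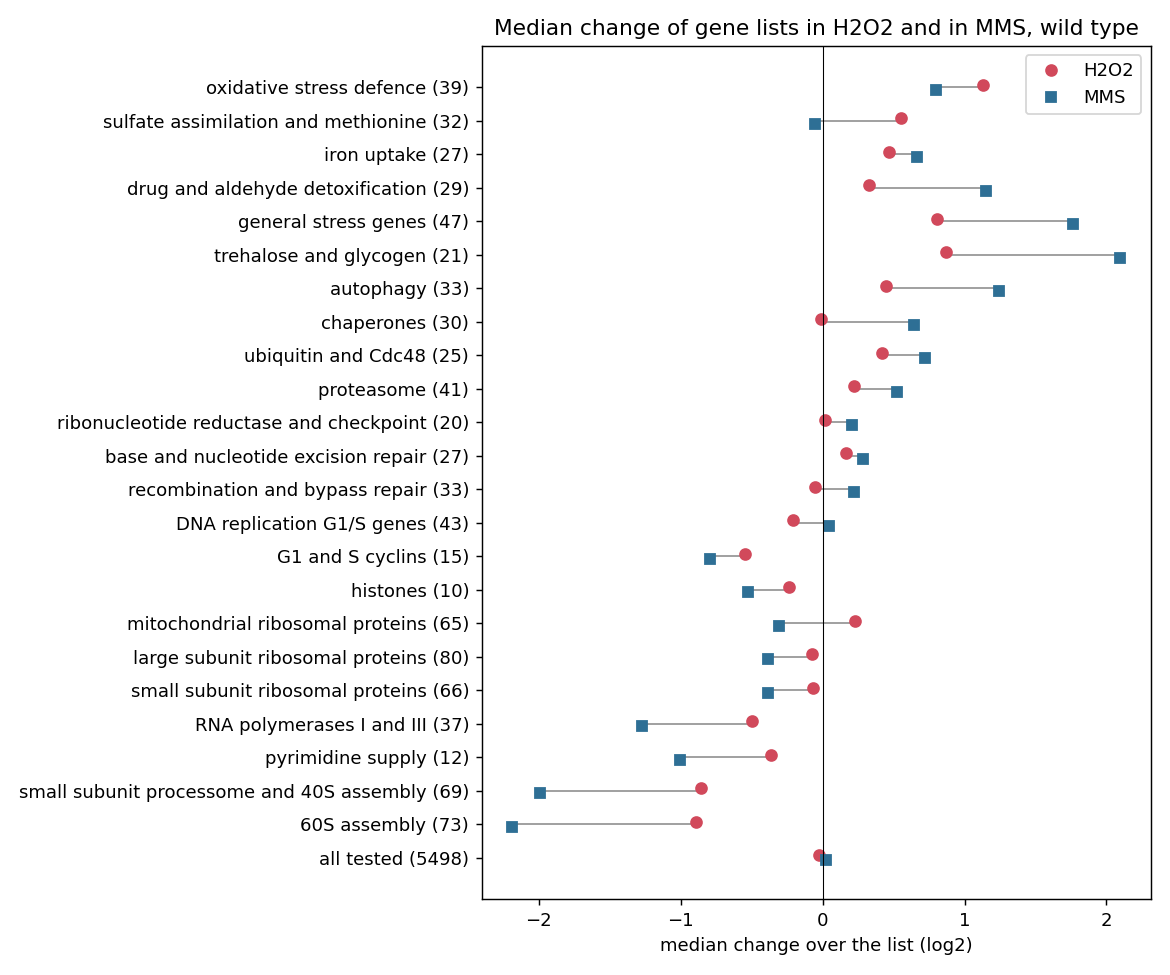
The median log2 change of each gene list is shown as a red circle for H2O2 and a blue square for MMS, with the number of probe sets in brackets. Oxidative stress defence and sulfate assimilation lie higher in H2O2, general stress, storage carbohydrate, autophagy and chaperone lists lie higher in MMS, and the ribosome assembly lists are down in both and lower in MMS.

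The general stress genes were up in both stresses and larger in MMS. Of 47 listed, 23 were past the limit upward in H2O2 (5.91% of all tested) and 39 in MMS (16.1%). Past it downward were 0, and the medians were 0.80 in H2O2 and 1.76 in MMS. By array the median was 0.58, 0.94 and 0.96 in H2O2, against 0.84, 2.02 and 2.72 in MMS. The first MMS array was thus near the H2O2 arrays, and the later ones stood above them. The limma test called 1 member in H2O2 (0.527% of all tested) and 13 in MMS (6.58%). The test over cultures gave a lower change in H2O2 for 24 (19.4% of all tested) and a higher one for 0 (17.9%). RTC3 had the largest difference, with 0.27, 0.93 and 1.21 in H2O2, against 2.32, 3.97 and 4.37 in MMS. It rose in MMS (adjusted p = 0.04), and its H2O2 change did not pass (0.79).

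Trehalose and glycogen genes build and break down the reserve carbohydrates of yeast. Of 21, 12 were past the limit upward in H2O2 (5.91% of all tested) and 20 in MMS (16.1%), with medians of 0.87 and 2.10. TSL1, a regulatory subunit of trehalose synthase, changed by 1.13, 1.58 and 1.18 in H2O2, against 2.995, 3.84 and 3.96 in MMS. It rose in MMS (adjusted p = 0.011), not in H2O2 (0.34), with an adjusted p = 0.016 over cultures. PGM2, the phosphoglucomutase, lay at 1.53 in H2O2 and rose by 3.98 in MMS (adjusted p = 0.029). GSY1, a glycogen synthase, lay at 0.87 and rose by 2.99 in MMS (adjusted p = 0.01).

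Of 30 chaperone genes, 3 were past the limit upward in H2O2 (5.91% of all tested) and 13 in MMS (16.1% of all tested), with medians of -0.01 and 0.64. HSP42, a small heat shock protein, changed by 1.05, 1.32 and 0.97 in H2O2, against 3.09, 3.89 and 4.40 in MMS, where it rose (adjusted p = 0.012). HSP78, the mitochondrial disaggregase, lay at 1.05 in H2O2 and rose by 3.36 in MMS (adjusted p = 0.0088). SSE2, a nucleotide exchange factor for Hsp70, lay at 0.23 and 2.52, and CUR1, a sorting factor for misfolded proteins, at 0.05 and 2.42, and neither passed. HSP82 (Hsp90) and SSA4 (an inducible Hsp70), picked after their values were seen, lay at -0.25 and 0.20 in H2O2 and at 1.72 and 1.59 in MMS. The chaperone median in MMS was 0.08, 0.65 and 1.26 at 20, 40 and 80 min, so the first MMS array was near the H2O2 arrays here too.

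Autophagy genes gave 5 of 33 past the limit upward in H2O2 (5.91% of all tested) and 22 in MMS (16.1%), with medians of 0.44 and 1.24. ATG14, a subunit of the phosphatidylinositol 3-kinase complex of autophagy, lay at 0.74 in H2O2 and rose by 2.12 in MMS (adjusted p = 0.031). ATG1, the autophagy kinase, was the member that rose in both, by 1.46 and 2.12 (adjusted p = 0.047 and 0.0088). Of 41 proteasome genes, 0 were past the limit in H2O2 and 5 in MMS, no more than the 16.1% of all tested, with medians of 0.22 and 0.52. The polyubiquitin gene UBI4 lay at 0.85 in H2O2 and 1.90 in MMS.

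As few as 34 probe sets were H2O2-sided upward and 7 downward, against 361 and 301 that were MMS-sided. ANS1, a putative cell surface protein gene, had the largest difference among them, with changes of 3.23, 3.04 and 2.21 in H2O2, against -0.08, -0.14 and -0.25 in MMS. It rose in H2O2 (adjusted p = 0.048), with a difference of 2.98 ± 0.54 (SE, adjusted p = 0.26, adjusted p = 0.016 over cultures). Its H2O2 0 min level of 3.78 lies under the S. pombe background limit of 5.04, so its baseline is not above background. KTR2, a mannosyltransferase gene, lay at 1.54 in H2O2 and -0.07 in MMS, and ARR3, an arsenite exporter gene, at 1.78 and 0.21. OCH1, the initiating mannosyltransferase of outer chain glycans, lay at 1.21 and -0.08, and none of these 3 passed in either stress.

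The H2O2-sided changes upward were brief. Their median was 0.94, 1.22, 1.18, 0.80, 0.26 and 0.10 at 5, 10, 15, 25, 35 and 45 min of H2O2. It stayed between 0.06 and 0.26 on the MMS arrays from 20 to 180 min. The class rule itself bounds the mean of the window arrays of each course. The transporter gene YHK8 was an extreme case, with 2.86, 1.93 and 0.05 at 10, 15 and 25 min. The H2O2-sided genes downward included CHA1, a serine and threonine deaminase gene, at -0.997 in H2O2 and 0.12 in MMS. UPC2, a regulator of sterol genes, lay at -0.84 in H2O2 and 0.05 in MMS, with all H2O2 arrays below all MMS arrays. LAC1, a ceramide synthase gene, lay at -0.95 and -0.27.

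Several genes with large H2O2 changes had an MMS change that was small but not under 0.4, and these were picked after their values were seen. YDL218W, a gene with no assigned function, changed by 5.39, 5.71 and 5.56 in H2O2, against -0.18, 0.93 and 1.42 in MMS. It rose in H2O2 (adjusted p = 0.021), not in MMS (0.35), and its difference of 4.83 ± 0.79 (SE) had an adjusted p = 0.012 over cultures. SMK1, a kinase of spore wall formation, changed by 3.90, 4.08 and 3.50 in H2O2, against 0.55, 0.94 and 0.18 in MMS, and rose in H2O2 (adjusted p = 0.013). SNZ3, a gene of vitamin B6 synthesis read by a probe set that can also read similar transcripts, changed by 1.56, 1.91 and 2.05 in H2O2, against -0.65, -0.45 and -0.48 in MMS. It rose in H2O2 (adjusted p = 0.035), and its MMS change did not pass (0.13). For YDL218W, SMK1 and SNZ3 the H2O2 and MMS arrays did not overlap.

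Of 32 sulfate assimilation and methionine genes, 14 were past the limit upward (5.91% of all tested) and 0 downward in H2O2, while 10 were upward (16.1% of all tested) and 6 downward (14.8% of all tested) in MMS, with medians of 0.55 and -0.05. The limma test called 0 in H2O2 (0.527% of all tested upward), and in MMS 5 upward (6.58%) and 2 downward (4.6%). Every H2O2 array lay above every MMS array in 14 of the 32 (24.4% of all tested) and below in 3 (27.3% of all tested). SAM1 and SAM2, the S-adenosylmethionine synthetases, lay at -0.35 and 0.08 in H2O2 and at -2.31 and -1.75 in MMS. MMP1, the S-methylmethionine permease, lay at 0.37 in H2O2 and fell by 1.74 in MMS (adjusted p = 0.043). STR2, a cystathionine gamma-synthase gene, lay on the other side, at 0.86 in H2O2 and 2.39 in MMS.

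Iron uptake genes gave 9 of 27 past the limit upward in H2O2 (5.91% of all tested) and 11 in MMS (16.1% of all tested). The medians were 0.47 in H2O2 and 0.66 in MMS, and the difference was above 0 for 15 and below 0 for 12. Every H2O2 array lay above every MMS array in 5 (24.4% of all tested) and below in 6 (27.3%). ISU2, a scaffold for iron-sulfur clusters, rose by 2.74 in H2O2 and 1.79 in MMS (adjusted p = 0.011 for each). FET3 and FTR1 encode the oxidase and the permease that form the high-affinity iron transporter. FTR1 changed by 0.29, 0.47 and 1.08 in H2O2, against -0.81, -1.08 and -0.79 in MMS, with no overlap, and passed in neither. FET3 changed by 0.30, 1.01 and 1.94 in H2O2, against 0.32, 0.09 and -0.29 in MMS.

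The largest MMS change of all probe sets of the MMS-sided class was that of DDI3, which encodes cyanamide hydratase and has a near-identical copy, DDI2, that this probe set can also read. It changed by 0.33, 0.50 and 0.11 in H2O2, against 5.25, 6.70 and 7.13 in MMS. It rose in MMS (adjusted p = 0.0099), not in H2O2 (0.92), and the difference was -6.05 ± 0.95 (SE, adjusted p = 0.20, adjusted p = 0.012 over cultures). PHM8, a nucleotide phosphatase gene, changed by -0.14, 0.14 and -0.01 in H2O2, against 2.73, 3.99 and 3.81 in MMS, where it rose (adjusted p = 0.013). YNR064C, an epoxide hydrolase gene, lay at 0.02 in H2O2 and rose by 2.86 in MMS (adjusted p = 0.043). YAT2, a carnitine acetyltransferase gene, lay at 0.36 in H2O2 and rose by 2.57 in MMS (adjusted p = 0.041).

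DNA repair lists were mixed. Of 27 genes listed for base and nucleotide excision repair, 2 were past the limit upward in H2O2 (5.91% of all tested). In MMS 9 were upward (16.1%) and 3 downward (14.8%), and 2 rose (6.58%) and 1 fell (4.6%) by the test. The list holds DDI3, the cyanamide hydratase gene named above, which is 1 of the 2 that rose. Of 33 recombination and bypass repair genes, 0 were past it in H2O2, and in MMS 3 were upward, 1 was downward and 0 passed the test. RAD4, which recognizes damage in nucleotide excision repair, lay at 0.36 in H2O2 and rose by 1.83 in MMS (adjusted p = 0.049). RAD16, an ATPase for the repair of non-transcribed DNA, changed by 0.11, 0.37 and 0.30 in H2O2, against 1.07, 1.94 and 2.68 in MMS, short of the test (adjusted p = 0.066) with an adjusted p = 0.016 over cultures. MAG1, the 3-methyladenine glycosylase that excises methylated bases, had overlapping values, with 0.94, 1.20 and 1.21 in H2O2, against 0.57, 1.39 and 1.75 in MMS. The MMS values of MAG1 enclosed its H2O2 values, and it was picked after its values were seen.

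Of 20 ribonucleotide reductase and checkpoint genes, 0 were past the limit upward in H2O2 (5.91% of all tested) and 6 in MMS (16.1%), and 0 downward. DUN1, the checkpoint kinase that acts on ribonucleotide reductase, lay at 0.33 in H2O2 and rose by 1.36 in MMS (adjusted p = 0.032). RNR3, the inducible large subunit of that enzyme, changed by 0.55, 0.91 and 0.91 in H2O2, against 1.15, 2.01 and 2.64 in MMS, with no overlap (adjusted p = 0.68 and 0.059, adjusted p = 0.017 over cultures). HUG1, an inhibitor of ribonucleotide reductase, lay at 0.07, 0.23 and 1.06 in H2O2, against 0.35, 1.51 and 2.47 in MMS. At 45 min of H2O2 HUG1 stood at 2.36, close to its MMS value of 80 min. POL30, the replication clamp PCNA, changed by -0.44, -0.60 and -0.56 in H2O2, against 0.62, 0.86 and 0.70 in MMS, with no overlap and with both mean changes under the limit.

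Amino acid synthesis lists were mixed. Of 13 arginine synthesis genes, 0 rose in H2O2, and in MMS 5 rose (6.58% of all tested) and 1 fell (4.6% of all tested). Of 9 lysine synthesis genes 1 rose in H2O2 (0.527% of all tested) and 4 in MMS (6.58%). In the test over cultures 1 arginine gene had a higher change in H2O2 and 1 a lower one, and for lysine 0 and 1. The 34 other amino acid synthesis genes had medians of 0.03 in H2O2 and 0.00 in MMS. Over cultures 10 had a higher change in H2O2 (17.9% of all tested) and 0 a lower one (19.4%). LYS1, the last enzyme of lysine synthesis, lay at 0.45 in H2O2 and rose by 2.36 in MMS (adjusted p = 0.011). ARG3, ornithine carbamoyltransferase, changed by 1.23, 0.76 and 0.62 in H2O2, against 2.13, 2.06 and 1.83 in MMS. For LYS1 and ARG3 the adjusted p over cultures did not pass (0.11 and 0.33). In the mutant their MMS changes were 0.73 and 0.53.

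MMS-sided genes downward included HMS2, a transcription factor gene, at -0.12 in H2O2 and -2.38 in MMS, and PAM18, a subunit of the mitochondrial import motor, at -0.08 and -1.84. RKI1, HTB2 and PCL1 were also past the limit downward in MMS, but their H2O2 changes were too large for the MMS-sided class. RKI1, ribose-5-phosphate ketol-isomerase, changed by -0.14, -0.57 and -0.69 in H2O2, against -0.87, -3.61 and -5.45 in MMS. The histone gene HTB2 lay at -0.49 in H2O2 and -1.75 in MMS, and the cyclin gene PCL1 lay at -0.74 and fell by 1.91 in MMS (adjusted p = 0.041). HTB2 and RKI1 did not pass in either stress.

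In 8 probe sets the changes were past the limit with opposite signs, and none of the 8 passed the test in both stresses. ARO10 and ARO9 encode the decarboxylase and the aminotransferase that break down aromatic amino acids. ARO10 changed by -1.84, -1.82 and -1.21 in H2O2, against 3.28, 4.48 and 4.30 in MMS. ARO9 changed by -1.53, -1.25 and -0.80 in H2O2, against 2.82, 3.65 and 3.42 in MMS. Both rose in MMS (adjusted p = 0.012 and 0.011), and the decrease in H2O2 did not pass (0.34 and 0.36). The differences were -5.64 ± 0.71 and -4.49 ± 0.55 (SE, adjusted p = 0.19 for each, and adjusted p = 0.017 over cultures for each). DIP5, a permease for dicarboxylic amino acids, changed by -1.27, -1.29 and -0.38 in H2O2, against 1.01, 1.27 and 0.84 in MMS, and passed in neither.

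In the other direction, MET14, the adenylylsulfate kinase of sulfate assimilation, changed by 0.50, 0.92 and 1.35 in H2O2, against -1.25, -1.73 and -1.03 in MMS. MHT1, the S-methylmethionine homocysteine methyltransferase, changed by 0.64, 0.93 and 1.05 in H2O2, against -1.15, -1.65 and -1.09 in MMS. MTH1, a repressor of hexose transporter genes, changed by 0.85, 0.84 and 0.93 in H2O2, against -1.39, -0.88 and -0.79 in MMS. MHT1 and MTH1 fell in MMS (adjusted p = 0.037 and 0.049), MET14 did not pass (0.065), and none passed in H2O2. CYC1, cytochrome c isoform 1, changed by 2.03, 2.04 and 2.0 in H2O2, against 0.16, -0.84 and -2.96 in MMS, so its MMS change had not begun at 20 min. CYC7, the other cytochrome c isoform, lay at 1.55 in H2O2 and rose by 3.30 in MMS (adjusted p = 0.02). YAP7, a bZIP factor gene and the last of the 8, changed by 1.72, 1.30 and -0.08 in H2O2, against -0.90, -1.18 and -0.99 in MMS.

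The classes differed in how long their changes lasted. In H2O2 the median of the genes up in both stresses was 0.52 at 5 min, 1.40 at 15 min and 0.61 at 45 min. In MMS it was 1.43 at 20 min, 2.34 at 80 min and 2.03 at 180 min. The genes down in both stood at -1.22 at 15 min and -0.42 at 45 min of H2O2, and at -2.95 at 80 min and -1.62 at 180 min of MMS. The courses end at different times, so the last arrays are not matched. SRX1 stood at 1.74 at 45 min of H2O2 and 5.35 at 180 min of MMS, and FLR1 at 0.14 and 4.88. TSA2 was unlike them, at 5.56 at 45 min of H2O2, as high as in its window, and at 3.03 at 180 min of MMS.

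**Figure D4:**
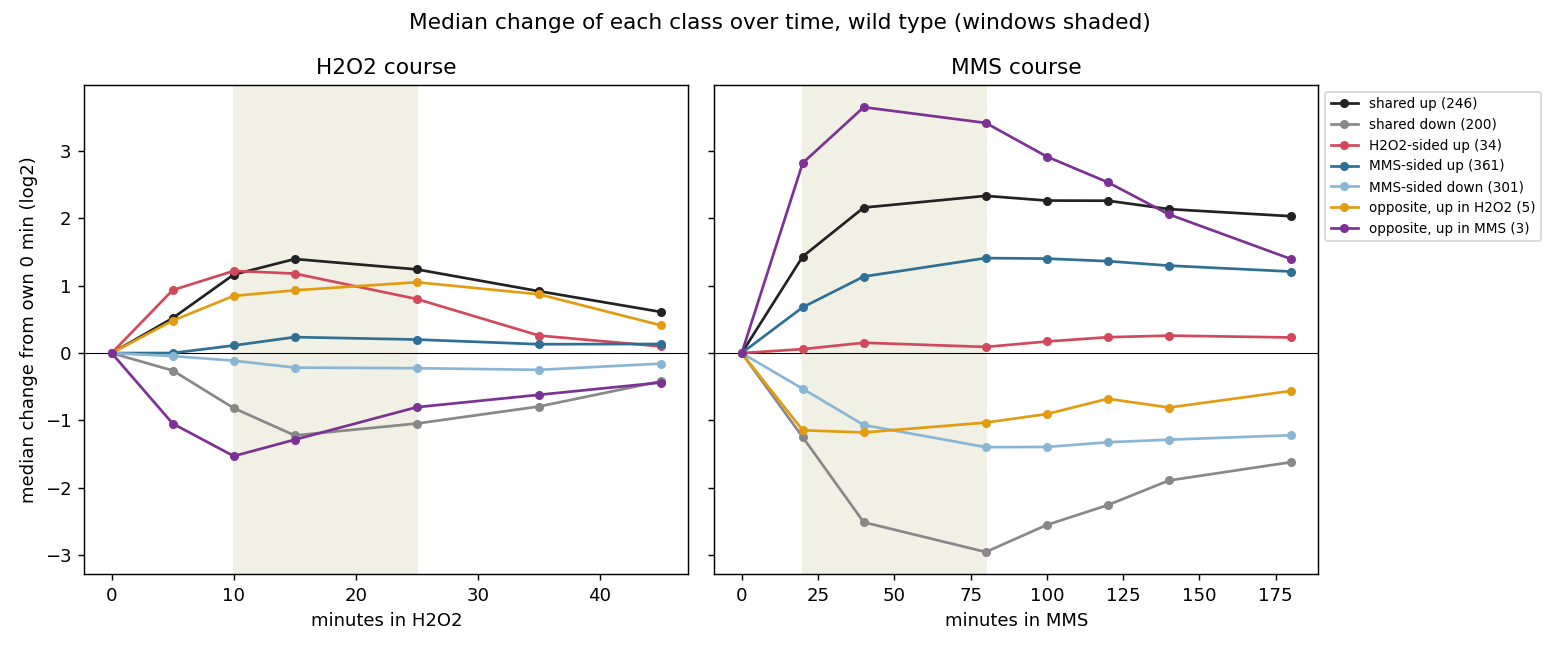
The median log2 change of each class is plotted against minutes in H2O2 (left) and in MMS (right), with the window arrays shaded and the number of probe sets in the legend. In H2O2 the medians of the genes up and down in both and of the H2O2-sided genes are farthest from 0 at 10 or 15 min and nearer to 0 at 45 min, and in MMS the medians of the genes up and down in both peak at 80 min.

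Arrays that did not enter the classes gave the following. In the rpb6 mutant, in the same windows, 133 probe sets were past the limit upward in H2O2 (2.42%) and 40 downward (0.728%), while 713 were upward in MMS (13%) and 653 downward (11.9%). The correlation between the 2 changes was 0.499 in the mutant, against 0.717 in the wild type. Of the 34 H2O2-sided probe sets upward in the wild type, 21 were past the limit in mutant H2O2 and 0 in mutant MMS. Of the 7 downward, 3 were past it downward in mutant H2O2, and in mutant MMS 2 were downward and 1 upward. Of the 361 that were MMS-sided upward, 0 were past it in mutant H2O2 and 212 in mutant MMS, and of the 301 downward, 0 and 152.

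The genes common to both stresses were read in the mutant in the same way. Of the 246 upward, 83 were past the limit in mutant H2O2 and 221 in mutant MMS, with medians of 0.64 and 1.65. Of the 200 downward, 21 and 194 were past it, with medians of -0.49 and -1.76. SRX1 lay at 5.68 in mutant H2O2 and 4.92 in mutant MMS. The opposite genes ARO10 and ARO9 kept both signs in the mutant, with -1.96 and -1.56 in H2O2, against 1.82 and 1.497 in MMS, and CYC1 did so with 1.51 and -1.14.

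A further wild type culture received H2O2 for 7 min before phenanthroline, a transcription inhibitor, was added, and its 0 min array was set against the untreated array of the same set. With 1 array on each side there is no test. Past the limit were 191 probe sets upward (3.47%) and 95 downward (1.73%). Of the 34 H2O2-sided probe sets upward, 24 were past the limit there, with a median of 0.93, and of the 246 up in both stresses 118, with a median of 0.77. Of the 361 MMS-sided probe sets upward 0 were past it, with a median of 0.00. SRX1 lay at 5.58 in this culture, YDL218W at 5.12, ANS1 at 3.13 and ARO10 at -1.15. MET14 lay at -0.32 and FTR1 at -0.22 at 7 min, not on the side of their H2O2 window changes.

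**Figure D5:**
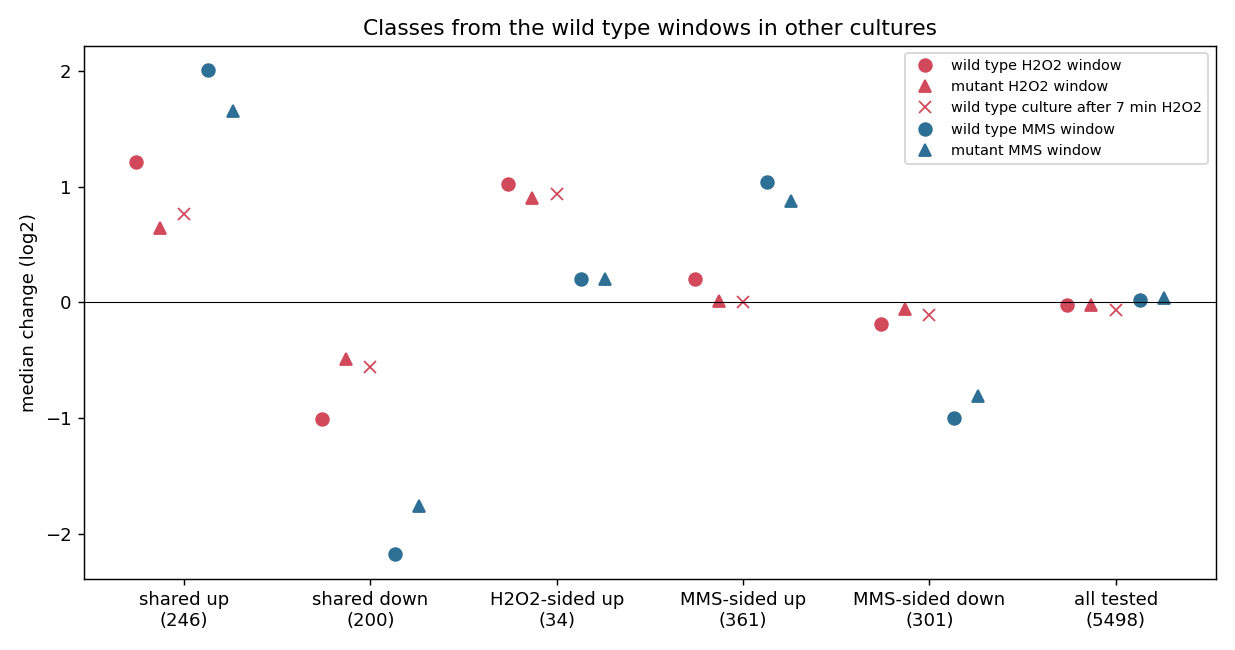
The median log2 change of each class is shown in the wild type windows (circles), in the rpb6 mutant windows (triangles) and in a wild type culture after 7 min of H2O2 (crosses), with H2O2 in red and MMS in blue. The MMS-sided classes lie near 0 in mutant H2O2 and in the 7 min culture, and the H2O2-sided class upward lies near 0.20 in mutant MMS. The wild type window values of these classes were bounded by the class rule.

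The classes also differed after phenanthroline alone. On the untreated reference course, 50 min after phenanthroline relative to 0 min, the median was 1.65 for the genes up in both stresses and -2.76 for those down in both, against 0.07 over all tested. It was 0.42 for the H2O2-sided genes upward, 0.66 for the MMS-sided genes upward and -0.69 for those downward. These values are relative levels within arrays of equal distribution and not decay rates.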

How the data were processed

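mRNA was measured on Affymetrix Yeast 2.0 arrays, 1 per time point. The authors made the deposited log2 values with RMA (its version is not given in the sources used here), normalizing the H2O2, MMS and decay sets apart. RMA forces 1 common spread of values on all arrays normalized together, so a change of total mRNA is not seen. A second deposited table holds the authors' own changes against 0 min and was not used. The number of arrays limits the precision.

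Probe sets were named through GEO's platform annotation, updated by gene ID, and 5498 of 10928 had 1 S. cerevisiae gene. limma 3.58.1 in R 4.3.3 was fitted to the 8 arrays as 4 groups (0 min and window of each stress, 4 residual degrees of freedom), with Benjamini-Hochberg adjustment over all 5498. A call needs an adjusted p under 0.05 and a 1.75-fold change, and for the difference the p alone. P-values within the wild type rest on scatter between times, pooled over the windows of both courses, and not on scatter between cultures. Because the difference test called 0 probe sets, classes were formed by the fold limit alone. In simulated data of 5498 probe sets, 200 were changed at each size. The H2O2 test recovered 47.5%, 87% and 93% of changes of log2 1, 2 and 3. Among the unchanged probe sets it made 19 false calls, and the difference test made 22. The test over cultures recovered 69%, 90.5% and 97% of differences of log2 1, 2 and 3, with 34 false calls. The simulated noise was independent, with 1 SD per probe set and no time course, so these rates need not hold for the real arrays.

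The genes named are the 8 leading probe sets of each class whose window arrays all lie on 1 side of 0 min, and the 4 members of each of 44 gene lists with the largest difference. Others were picked after their values were seen. Members and lists were chosen with earlier results of these data known. Alternatives covered fold limits, filters, variance models, windows, a joint normalization and each array left out. Summaries and figures used Python 3.11.15, numpy 2.4.6, pandas 2.3.3 and matplotlib 3.10.9.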

Additional observations from a re-analysis of the deposited data

Results flagged for a closer look

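For 6 genes every H2O2 array of the window lay on one side of its 0 min array and every MMS array on the other, with both changes past 1.75-fold. The change in H2O2 minus the change in MMS was -5.64 for ARO10, -4.49 for ARO9 and -2.02 for DIP5. It was 2.26 for MET14, 2.17 for MHT1 and 1.89 for MTH1. The limma test of the difference passed for none of the 6 (adjusted p = 0.19 for ARO10 and ARO9, 0.38 for DIP5, 0.33 for MET14, 0.26 for MHT1 and 0.27 for MTH1). In the rpb6 mutant the difference had the same sign in all 6, with -0.84 in H2O2 and 0.76 in MMS for DIP5, and 0.23 and -0.56 for MHT1.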

How the results depend on the processing

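Counts by the limma test depended on the arrays and windows used. MMS had the larger count in every setting except with each stress fitted alone, where H2O2 did. The main counts were 29 in H2O2, 615 in MMS, 21 shared and 0 for the difference, the H2O2-only, the MMS-only and the opposite class. With the fold limit alone they were 546 in H2O2, 1695 in MMS, 446 shared, 8 opposite and 1092 with a difference past the limit, and 30 H2O2-only and 406 MMS-only probe sets also had such a difference. With each stress fitted alone, 113 were called in H2O2, 0 in MMS and 0 shared. At the nearest times (25 and 45 min of H2O2, 20 and 40 min of MMS), 0, 3 and 0 were called. Over all times after 0 min there were 10 in H2O2, 1804 in MMS, 7 shared, 47 for the difference and 33 MMS-only, and the correlation moved to 0.676. Joint quantile normalization with 3 untreated arrays gave 326 in H2O2, 1504 in MMS, 231 shared, 1775 for the difference, 41 H2O2-only, 485 MMS-only and 1 opposite, and this setting compares levels across array sets. Adding the mutant cultures, as chosen after seeing the data, gave 2051 for the difference, and 2937 with strain as a term. Centring each array on its median, also added, kept every count within 1.5 times.

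Leaving out 1 window array gave 0 to 142 in H2O2, 91 to 2024 in MMS, 0 to 612 for the difference, 0 to 119 shared, 0 to 5 H2O2-only, 0 to 278 MMS-only and 0 to 2 opposite, and a correlation of 0.691 to 0.739. The upper counts all come from leaving out MMS 20 min, and the count of 0 in H2O2 from leaving out the 10 or the 15 min array. The cause was not tested beyond this. No paired analysis was possible because each time point of a course has 1 array and the labels give no number that pairs arrays of the 2 courses.

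Among the 212 named probe sets a few differences changed sign, 1 of them under both of the following alternatives. At the nearest times these were YDR042C (-0.015), YHK8 (-0.66), ECM13 (0.007), HUG1 (0.78), ADE17 (0.46) and GCV1 (0.20). Under joint normalization they were CDA1 (-0.25), ECM13 (0.19), RPL41A (-1.12) and PYK2 (0.005).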
